A study of Mus musculus with 24 samples.

Results

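Stabilised beta-catenin in kidney stroma at E13.5 (E for embryonic day) was described from 6 of the 24 libraries of the study: 3 of stabilised stroma and 3 of wild-type stroma of the same strain and stage, taken by the genotype, strain and stage in the sample labels. The study sorted stromal cells from the embryonic kidneys of FoxD1Cre-eGFP mice by fluorescence and sequenced their RNA on an Illumina HiSeq instrument. Both groups are of the CD1 strain, at E13.5, from kidney; the stabilised group carries the genotype written β-catSO. The other libraries are stabilised and wild-type stroma of CD1 embryos at E12.5, and deficient (β-catSD) and wild-type stroma of C57BL/6 embryos at both stages, 3 each. Cre expression follows Foxd1, a transcription factor of the renal stromal progenitor, so that the allele is changed in the Foxd1 lineage; neither the alleles of Ctnnb1 nor the sorting gate is given in the sources used here. The design text names 3 kidneys per genotype. Whether the 3 libraries of a group came from separate embryos is not in the labels, so the p-values measure a spread between libraries that may be technical. That spread is shared over the groups of all 24 libraries, most of them outside this comparison.

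Beta-catenin, the product of Ctnnb1, is the transducer of canonical Wnt signals: it is broken down by a destruction complex built on Axin and Apc unless a Wnt ligand binds its Frizzled receptor, and the stable protein enters the nucleus and acts with TCF/LEF factors at target genes. Many of these targets are inhibitors of the pathway, which makes them common readouts. Renal stroma surrounds the nephron progenitors and the branching ureteric bud in the cortex, supplies retinoic acid and other signals to them, and gives rise to medullary stroma, pericytes and smooth muscle as the kidney grows.

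The 3 stabilised libraries held 12.3 M, 21.2 M and 12.6 M reads and the wild-type libraries 16 M, 6.75 M and 7.67 M. Across genes the log2 levels correlated with r between 0.948 and 0.962 within the stabilised group, 0.927 and 0.957 within the wild-type group, and 0.897 and 0.93 between them, and on the first principal component of the 6 libraries (44% of the variance) the stabilised libraries lay from −58.9 to −42 and the wild-type libraries from 25.8 to 70.1. Stromal genes were expressed in every library: Foxd1 was at or above 7.05 log2 CPM (reads scaled to a common library total, log2 scale), Tcf21 at or above 6.29, Pdgfra at or above 8.59 and Col1a1 at or above 11.57. The cells were sorted by fluorescence from FoxD1Cre-eGFP kidneys, so the Foxd1 level is no separate check of the label. Wild-type replicates 1 and 3 stood apart in genes of other cells. The summed level of 18 endothelial markers was 1220, 122 and 61.3 CPM in wild-type replicates 1 to 3 and 385 to 596 CPM in the stabilised libraries, and that of 10 erythroid markers was 4120, 1420 and 50.5 CPM against 89.6 to 595. Wild-type replicate 3 held 1100 CPM of 13 liver markers, against 21.1 to 87 CPM in the other 5 libraries, with Alb at 2236 reads there and at 0 in stabilised replicates 1 and 3 and wild-type replicate 1. The 16 macrophage markers summed to 500 to 1270 CPM in the stabilised and 344 to 463 CPM in the wild-type libraries. The part of these cells in the results below was not tested beyond the counts given without wild-type replicates 1 and 3 and with marker levels in the fit.

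**Figure D1:**
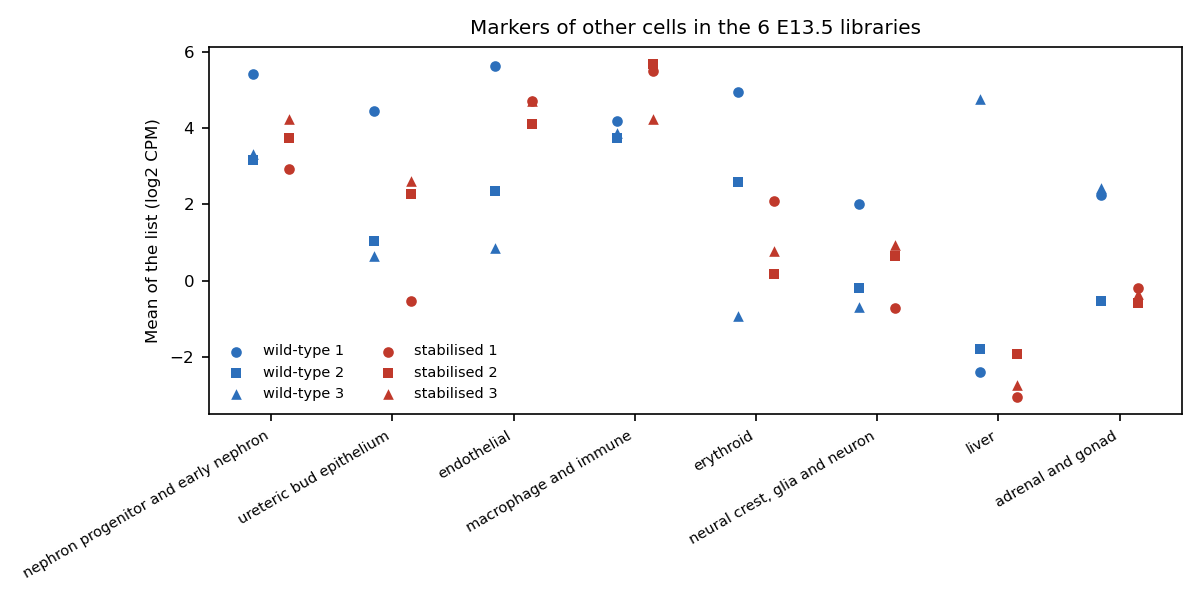
Mean log2 CPM of 8 marker lists of other cell types (x axis) in each of the 6 E13.5 libraries (y axis; blue wild-type, red stabilised, marker shape by replicate). Wild-type replicate 1 lies highest for the endothelial, erythroid and ureteric bud lists, and wild-type replicate 3 highest for the liver list and lowest for the endothelial and erythroid lists.

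Stabilised and wild-type stroma differed broadly at E13.5. Among the rises were inhibitors of the Wnt pathway and genes of other embryonic tissues, and among the falls genes of the cortical stroma, including the retinoic acid enzyme Aldh1a2 and the ureteric bud signal Gdnf. Of 13803 genes tested, 2120 (15.4%) passed an adjusted p of 0.05 (limma; such genes are named called below), 1177 higher (8.53%) and 943 lower (6.83%) in stabilised cells. The shares of 8.53% and 6.83% are the background for every count over a list below. At least 2-fold were 517 of the rises and 259 of the falls, and at least 8-fold 133 of the rises and 31 of the falls. The median log2 change over all genes was −0.009. In 1974 of the 2120 called genes the libraries of the 2 groups did not overlap, so a lack of overlap adds little to a call. In bulk libraries, fewer cells of a kind and less RNA per cell cannot be told apart, here and in every result below. With wild-type replicate 2 as the only wild-type library the calls numbered 1204 (688 higher, 516 lower), and with endothelial, macrophage and erythroid marker levels in the fit they numbered 1255.

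**Figure D2:**
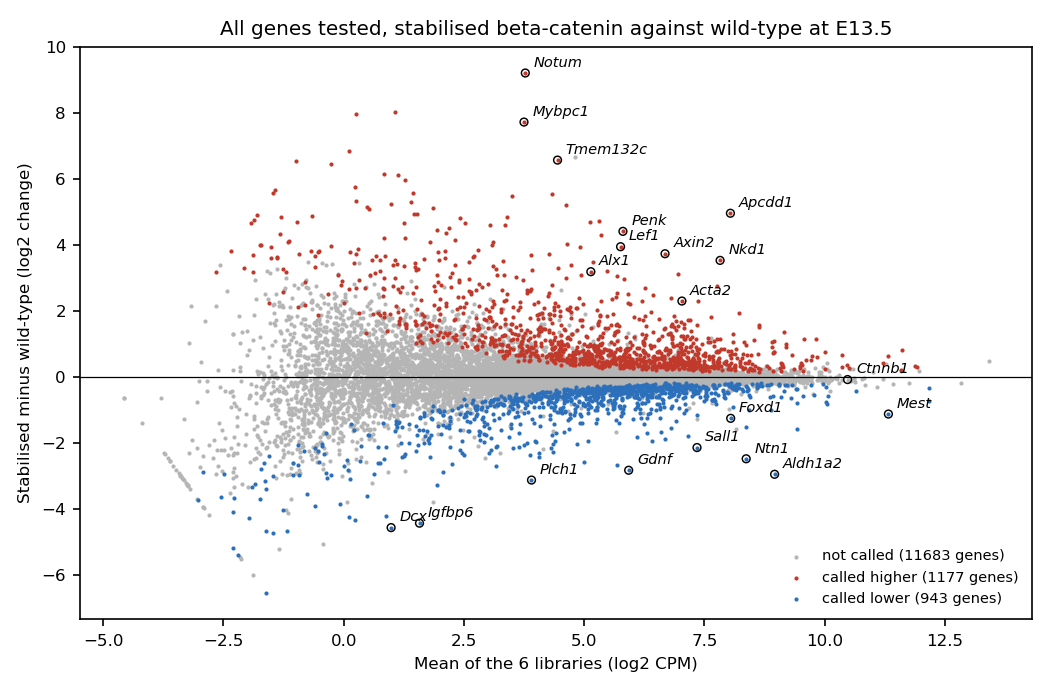
Log2 change between stabilised and wild-type stroma at E13.5 (y axis) against the mean log2 CPM of the 6 libraries (x axis) for each of the 13803 genes tested, with 1177 called higher in red and 943 called lower in blue. The rises reach further from 0 than the falls, with Notum at 9.21 and Aldh1a2, among highly expressed genes, at −2.95.

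Ctnnb1 itself did not differ in level. It stood at 10.45, 10.41 and 10.44 log2 CPM in the stabilised libraries and at 10.47, 10.57 and 10.51 in the wild-type libraries, a log2 change of −0.08 ± 0.06 (SE; adjusted p = 0.446). A total over the gene cannot show whether the protein is stabilised, so this value does not check the genotype labels. Of the 19 measured genes of the destruction complex, including Apc at −0.16, Gsk3b at −0.16 and Axin1 at −0.05, 3 were called: Axin2 and the kinase gene Csnk1e were higher and the ubiquitin ligase gene Btrc lower. Csnk1e lost its call without any 1 of stabilised replicates 1 (adjusted p = 0.112), 2 (0.056) and 3 (0.129) or wild-type replicates 2 (0.0622) and 3 (0.252). The 3 calls of 19 are close to the share of 15.4% over all genes.

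Inhibitors of the pathway rose. Of 14 measured membrane and intracellular inhibitors 9 were higher and 2 lower, with a median log2 change of 1.69, and 8 to 10 were higher in fits that left out 1 library each. Apcdd1, a membrane protein that binds Wnt ligands, stood at 10.23, 10.44 and 10.89 log2 CPM in stabilised replicates 1 to 3 and at 5.69, 5.42 and 5.57 in the wild-type replicates. It rose by 4.96 ± 0.18 on the log2 scale (31.1-fold; adjusted p = 4.57e-15), and the groups lay over 4 log2 units apart with no overlap. Nkd1 and Nkd2 encode proteins that bind Dishevelled inside the cell. Nkd1 measured 9.30, 9.47 and 10.00 against 5.90, 6.05 and 6.24 log2 CPM, a rise of 3.53 ± 0.13 (adjusted p = 4.57e-15). Nkd2 was low in wild-type stroma, at 2.78, 2.72 and 2.80, and reached 7.16, 7.42 and 7.84 in stabilised stroma, a rise of 4.71 ± 0.21 (26.1-fold; adjusted p = 2.68e-13). Axin2, the feedback scaffold of the destruction complex, rose by 3.73 ± 0.15 (13.3-fold; adjusted p = 5.85e-14) from 5.00, 4.73 and 4.71 to 8.48, 8.38 and 8.78 log2 CPM. Smaller rises were those of Kremen1, a receptor for Dkk proteins (2.47), Tpbg (2.25), Znrf3, a ubiquitin ligase that removes Frizzled receptors (1.65 ± 0.15), and Dact1 (1.10). Against this direction, Dact2 (−3.27) and Shisa3 (−1.58 ± 0.15) fell, and the Dact2 call was lost in the 6 libraries alone (adjusted p = 0.0818) and with wild-type replicate 2 only (0.111).

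Secreted antagonists followed the same direction: 8 of 14 measured were higher and 1 lower (median 0.85). Notum, an extracellular enzyme that removes the lipid of Wnt ligands, had the largest fitted rise of the named genes. It was counted at 3358, 6410 and 5644 reads in the stabilised libraries and at 68, 0 and 4 reads in the wild-type libraries, which gave 8.10, 8.24 and 8.81 against 2.04, −3.76 and −0.77 log2 CPM. Its log2 change was 9.21 ± 1.32 (adjusted p = 2.05e-05), with the error from the fit over all 24 libraries. Over the alternative fits the change ranged from 5.43 to 12.14. Wif1, which binds Wnt ligands, was counted at 116, 362 and 546 against 14, 0 and 3 reads (5.96 ± 0.80; adjusted p = 9.35e-06). Frzb (1.26 ± 0.21), Draxin (1.83), Dkk3 (1.00), Dkk2 (0.87), Sfrp2 (0.83) and Igfbp4 (0.52 ± 0.07) rose less. Sfrp5 was the one called lower, at 3 against 49 reads in all, a ratio of 0.0404 (95% counting interval 0.00806 to 0.125). Dkk1, a canonical target in other tissues, had a log2 change of −0.63 ± 0.21 and missed the threshold (adjusted p = 0.051). It was called lower in 5 of 16 alternatives, with changes from −0.75 to −0.47 over all of them. With wild-type replicate 2 as the only wild-type library 4 of these antagonists were called higher, and with marker levels of other cells in the fit 5. The lower members were 2 without stabilised replicate 3 and 3 without wild-type replicate 1. They were 0 with marker levels of other cells in the fit, so the Sfrp5 call was lost there.

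At the nuclear end, the TCF/LEF factors split. Lef1 and Tcf7, both targets and partners of beta-catenin, rose: Lef1 stood at 7.66, 7.66 and 7.87 against 3.90, 3.56 and 3.90 log2 CPM (3.95 ± 0.42; 15.4-fold; adjusted p = 4.3e-07), and Tcf7 at 6.82, 7.09 and 7.37 against 4.61, 3.46 and 3.54 (3.22 ± 0.31; adjusted p = 8.01e-08). The repressor Tcf7l1 fell, by 0.52 ± 0.09 on the log2 scale (adjusted p = 0.000139), a call lost with wild-type replicate 2 only (0.0528), while Tcf7l2 changed by −0.18 and was not called. The corepressor gene Tle1 rose (1.16 ± 0.09) and Tle2 fell (−0.73). Sp5, a zinc finger factor that TCF/LEF sites switch on in many tissues, stood at 4.75, 5.14 and 5.36 against 1.42, 0.33 and 1.48 log2 CPM (4.01 ± 0.90; adjusted p = 0.00296), and this call was lost with the marker levels of other cells in the fit (0.175). No library of either group overlapped with the other for Lef1, Tcf7 or Sp5.

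The promoters of 4 of these genes are printed because they show where the TCF/LEF core motif does and does not lie at the starts of genes that moved with beta-catenin: Sp5, Axin2 and Lef1, which rose, and Foxd1, which fell. Each is the 300 bases from 250 before to 50 after the transcription start in RefSeq (build GRCm38.p6), on the plus strand for all 4, in lower case with the core CTTTGAT, or its reverse complement ATCAAAG, in capitals where it occurs. The Sp5 window is chr2:70474673-70474972, the Axin2 window chr11:108920099-108920398, the first of the Lef1 windows chr3:131110047-131110346 and the Foxd1 window chr13:98353995-98354294.
Sp5: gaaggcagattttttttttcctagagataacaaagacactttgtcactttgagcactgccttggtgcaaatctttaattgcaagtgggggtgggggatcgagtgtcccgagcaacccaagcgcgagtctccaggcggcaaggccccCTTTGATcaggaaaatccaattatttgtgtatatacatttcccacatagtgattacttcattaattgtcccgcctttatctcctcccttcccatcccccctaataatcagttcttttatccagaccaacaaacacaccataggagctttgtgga
Axin2: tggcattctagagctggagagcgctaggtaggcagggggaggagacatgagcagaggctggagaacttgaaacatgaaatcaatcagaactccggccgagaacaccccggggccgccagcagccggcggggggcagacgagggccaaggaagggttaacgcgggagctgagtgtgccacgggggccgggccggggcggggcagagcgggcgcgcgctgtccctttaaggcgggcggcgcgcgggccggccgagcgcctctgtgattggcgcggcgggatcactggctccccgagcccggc
Lef1: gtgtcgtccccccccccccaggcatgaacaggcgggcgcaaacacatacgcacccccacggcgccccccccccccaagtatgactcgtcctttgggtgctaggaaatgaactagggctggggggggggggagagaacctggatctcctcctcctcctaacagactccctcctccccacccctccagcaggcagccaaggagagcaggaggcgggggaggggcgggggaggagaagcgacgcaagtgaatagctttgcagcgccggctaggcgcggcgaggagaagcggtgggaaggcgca
Foxd1: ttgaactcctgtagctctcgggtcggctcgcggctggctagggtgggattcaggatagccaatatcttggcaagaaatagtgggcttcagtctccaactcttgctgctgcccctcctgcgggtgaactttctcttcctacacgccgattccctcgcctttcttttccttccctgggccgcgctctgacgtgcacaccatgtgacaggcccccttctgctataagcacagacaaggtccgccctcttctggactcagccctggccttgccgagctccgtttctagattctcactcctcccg
In the Sp5 window the core begins at position 147, 104 bases before the start, and the other 3 windows hold none, which says only that these letters are not in these 300 bases. A promoter was found in RefSeq for 10739 of the 13803 genes tested, and 320 of them (2.98%) held the core in a window. Among genes called higher 27 of 869 did (3.11%), among genes called lower 14 of 703 (1.99%), and among genes called higher at least 8-fold 6 of 85 (7.06%), namely Sp5, Cpz, Edar, Lrriq1, Tnfrsf19 and Dach1. Tnfrsf19, a receptor of the tumour necrosis factor family, rose by 4.73, Edar, the ectodysplasin receptor, by 3.65 and Dach1, a transcription cofactor, by 3.05 on the log2 scale. These shares are descriptions of short windows and were not tested.

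Receptors and ligands moved less than inhibitors. Of 18 measured receptors and co-receptors 4 were higher and 1 lower (median 0.07), against 8.53% and 6.83% of all genes. Fzd10, a Frizzled receptor, was the exception in size, counted at 1509, 2599 and 2149 against 149, 15 and 9 reads (5.54 ± 0.56; adjusted p = 2.03e-07). Fzd1 (1.59 ± 0.13), Lgr4, a receptor for R-spondins (1.02 ± 0.10), and Fzd7 (0.73 ± 0.10) rose, Fzd8 fell (−0.63), and the co-receptors Lrp5 and Lrp6 changed by −0.11 and −0.15 without a call. No receptor was called lower without stabilised replicate 3, and without wild-type replicates 1 or 2 the lower ones were 3 and 2. Among 18 ligands, R-spondins and secretion genes 6 were higher and none lower (median 0.71), with Wls, the carrier that exports Wnt ligands, at 0.68 ± 0.08 and Wnt5a at 0.74 ± 0.15. Without stabilised replicate 3, or without wild-type replicate 2, 3 ligand genes were called higher, with marker levels of other cells in the fit 2, and without stabilised replicate 2 or 3 there were 2 lower. Wnt4, which drives the nephron progenitors' transition to epithelium and is also made by medullary stroma, stood at 5.60, 5.95 and 6.72 against 5.57, 2.39 and 3.11 log2 CPM, with wild-type replicate 1 close to the stabilised libraries. Its call (2.40 ± 0.70; adjusted p = 0.0208) was lost without stabilised replicate 3 (0.0889), wild-type replicate 2 (0.135) or wild-type replicate 3 (0.0919), in the 6 libraries alone (0.0705) and with marker levels of other cells in the fit (log2 change 0.93; 0.563).

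Genes known as Wnt targets in other tissues rose in part. Of 27 measured 15 were higher and 1 lower (median 1.45), with 2 lower without stabilised replicate 3 or wild-type replicate 1; 8 of the 15 are the inhibitors and nuclear factors above. The others included the homeobox gene Msx1 (120, 269 and 180 against 23, 2 and 0 reads; 5.23 ± 1.16, lost with marker levels of other cells in the fit at adjusted p = 0.24), the repressor gene Prdm1 (4.84), the BMP decoy receptor gene Bambi (1.45), the matrix gene Vcan (0.89 ± 0.12) and the mesenchymal factor gene Twist1 (0.82). Growth genes usually named with this pathway were not called higher. Ccnd1, cyclin D1, changed by 0.10 ± 0.15 (adjusted p = 0.71), Myc by 0.19 ± 0.17 (0.509), and Mycn fell by 0.84 ± 0.12 (adjusted p = 1.88e-05), from 6.71, 7.04 and 7.19 to 6.44, 6.13 and 5.86 log2 CPM. The Myc value passed the threshold without wild-type replicate 1 (adjusted p = 0.0294) and was −0.02 without wild-type replicate 3.

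**Figure D3:**
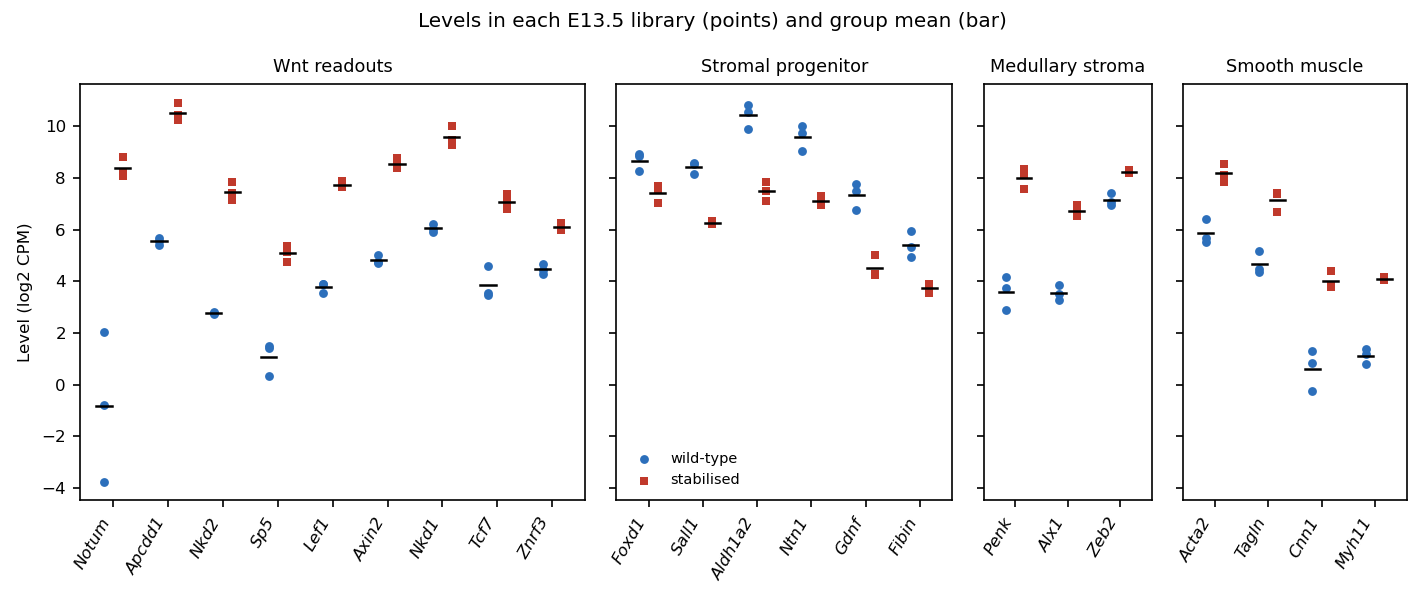
Level (log2 CPM, y axis) of 22 genes in each E13.5 library, wild-type in blue and stabilised in red, with group means as bars, in 4 panels by role. In each gene shown every stabilised library lies beyond every wild-type library, above for Wnt readouts, medullary stroma and smooth muscle genes and below for stromal progenitor genes. The groups did not overlap in 1974 of the 2120 called genes.

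Some genes of the stromal progenitor and cortical stroma fell. Of 25 measured, 10 were lower and 2 higher, against 6.83% and 8.53% of all genes; the median was −0.08, and 7 to 11 were lower when 1 library was left out; the higher members were 1 without stabilised replicate 3. Foxd1, whose promoter drives the Cre, stood at 7.68, 7.53 and 7.05 against 8.26, 8.92 and 8.84 log2 CPM, a fall of 1.26 ± 0.15 (adjusted p = 1.77e-06), and remained well expressed in all 6 libraries. Sall1, a zinc finger factor of stroma and nephron progenitors, fell by 2.14 ± 0.09 (adjusted p = 9.41e-14) to 6.33, 6.24 and 6.26 from 8.15, 8.57 and 8.53. Aldh1a2, the enzyme that makes retinoic acid in cortical stroma, fell by 2.95 ± 0.17 (adjusted p = 8.75e-12), to 7.83, 7.49 and 7.13 from 9.91, 10.55 and 10.85 log2 CPM. Ntn1, the secreted guidance factor netrin 1, fell by 2.48 ± 0.20 (adjusted p = 6.27e-09) and the secreted factor gene Fibin by 1.67 ± 0.17 (2.88e-07). Smaller falls were those of the homeobox genes Meis2 (−0.60) and Meis1 (−0.48), the receptor gene Pdgfra (−0.58) and the retinoic acid receptor gene Rarb (−0.46). Tcf21, a basic helix-loop-helix factor of the stroma, went the other way and rose by 1.24 ± 0.20 (adjusted p = 0.000113), at 7.81, 7.63 and 7.46 against 6.47, 6.43 and 6.29. Fat4 (0.23), Osr1 (0.37) and Hoxd11 (−0.08) were not called.

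Genes of medullary stroma rose. Of 15 measured 11 were higher and 2 lower (median 2.30). In fits that left out 1 library each 10 or 11 were higher, and 8 with marker levels of other cells in the fit. Penk, which encodes the opioid precursor proenkephalin, stood at 7.58, 8.11 and 8.34 against 3.75, 2.87 and 4.18 log2 CPM (4.41 ± 0.62; 21.3-fold; adjusted p = 1.63e-05). Alx1, a homeobox factor, stood at 6.52, 6.72 and 6.96 against 3.86, 3.50 and 3.28 (3.19 ± 0.57; adjusted p = 0.000309). For both, the groups did not overlap. Zeb2, a zinc finger factor of mesenchyme, rose by 1.10 ± 0.10 (adjusted p = 6.89e-08). Nts, the neurotensin precursor gene, was counted at 134, 304 and 276 against 32, 0 and 0 reads (6.16 ± 1.25; adjusted p = 0.00115), a call lost with marker levels of other cells in the fit (0.0756). Lef1, Nkd1, Wnt4 and Wnt5a belong both to this list and to the Wnt lists, so the 2 sets of counts share members. Acta2 belongs both to this list and to the smooth muscle list below. Cdkn1c, a brake on the cell cycle that is high in medullary stroma, was lower (−0.59 ± 0.08; adjusted p = 1.48e-05).

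Contractile genes and genes of the mesenchyme around the ureter rose as well. Of 16 measured smooth muscle genes 10 were higher and none lower (median 0.94), with 8 higher when wild-type replicate 2 was the only wild-type library and 1 lower without wild-type replicate 1. Acta2, smooth muscle actin, stood at 7.86, 8.14 and 8.55 against 5.69, 6.42 and 5.54 log2 CPM (2.30 ± 0.27; adjusted p = 1.86e-06). Tagln, an actin-binding protein of smooth muscle, stood at 6.69, 7.42 and 7.39 against 4.48, 5.18 and 4.36 (2.50 ± 0.30; adjusted p = 2.56e-06), and Myh11, smooth muscle myosin, at 4.04, 4.16 and 4.06 against 1.17, 1.37 and 0.81 (2.97 ± 0.47; adjusted p = 6.52e-05). Every stabilised library exceeded every wild-type library for these 3 genes. Actg2 (3.80), Cnn1 (3.40 ± 0.57), Synpo2 (1.90 ± 0.24), Cnn2 (0.89 ± 0.11) and Myl9 (0.85) rose with them, while Des (0.14), Cald1 (0.16) and Smtn (−0.22) were not called. Of 13 genes of ureteral mesenchyme 9 were higher and 1 lower (median 1.38). They included T-box genes, of which 4 of the 16 listed are in the table and were higher, Tbx1 (2.78 ± 0.38), Tbx3 (2.56 ± 0.31), Tbx18 (1.38 ± 0.16) and Tbx2 (1.00 ± 0.13), though Tbx1 is not on the ureteral list, and also Car3 (4.08 ± 0.33), Gata2 (3.41) and Tshz3 (1.56 ± 0.19). Genes of pericytes and the renin lineage were divided: 3 of 16 were higher and 6 lower (median −0.26). Rgs5, a pericyte regulator of G proteins, rose by 2.29 ± 0.15 (adjusted p = 2.69e-10) and Angpt1 by 1.48 ± 0.17 (7.64e-07), and Akr1b7 (−2.20 ± 0.34), Foxd2 (−1.15 ± 0.14), Ebf1 (−0.96 ± 0.14) and Pdgfrb (−0.32) fell. The endothelial markers beside which pericytes lie had summed levels of 385 to 596 CPM in the stabilised libraries, inside the wild-type range; 1 of 18 was called higher, and 15 of 18 were when wild-type replicate 1 was left out.

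Gdnf, the ligand that guides branching of the bud through the receptor Ret, fell by 2.83 ± 0.21 (adjusted p = 2.19e-09), to 5.02, 4.24 and 4.27 log2 CPM from 6.76, 7.51 and 7.75, with no overlap. Of 15 measured genes of GDNF and RET signalling 6 were lower and 3 higher (median −0.83), and 4 were lower without wild-type replicate 1, the library with the most ureteric bud marker reads (488 CPM). The response genes Etv4 (−1.39 ± 0.19) and Spry1 (−0.95 ± 0.09) fell, and the receptor gene Gfra2 rose (2.53 ± 0.29). Ret itself, a marker of bud tips, was counted at 1, 57 and 16 against 363, 11 and 1 reads and followed the libraries more than the groups (−1.35 ± 1.47; adjusted p = 0.602). Of 22 FGF genes 8 were lower and 3 higher (median −0.34), with the ligand gene Fgf10 (−1.36) and the inhibitors Spred2 (−0.88 ± 0.11) and Spry2 (−0.80) among the falls, and the receptor gene Fgfr2 (1.60 ± 0.15) and the adhesion gene Flrt2 (1.31 ± 0.09) among the rises. Of 18 retinoic acid genes 5 were lower and 2 higher (median −0.38): beside Aldh1a2 these were Dhrs3 (−1.24 ± 0.16) and Crabp2 (−0.88 ± 0.08), both commonly induced by retinoic acid, Ecm1 (−1.01 ± 0.13) and Rarb, and against them Stra6 (1.19) and Rarg (0.53) rose.

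Of 31 measured BMP genes 15 were higher and none lower (median 0.45), against 8.53% of all genes, with 11 to 14 higher when 1 library was left out, 10 with marker levels of other cells in the fit and 8 with wild-type replicate 2 as the only wild-type library. The ligand gene Bmp4 stood at 5.81, 6.19 and 6.45 against 4.64, 4.64 and 4.10 log2 CPM (1.69 ± 0.20; adjusted p = 2.25e-06), and Bmp5 at 5.19, 5.23 and 4.87 against 3.22, 3.42 and 2.85 (1.93 ± 0.21; 4.94e-07). The target genes Id4 (2.12) and Id3 (0.67) and the receptor-activated gene Smad9 (1.24 ± 0.18) rose with them. So did the antagonists: Nog rose by 3.00 on the log2 scale, and Grem1 was counted at 578 reads in the stabilised and 3 in the wild-type libraries, a ratio of 127 after scaling by library totals (95% counting interval 43.3 to 619). In the TGF-beta and activin list 5 of 20 were higher and 4 lower (median 0.14), led by the activin subunit gene Inhba (2.16 ± 0.28), its antagonist Fst (3.47) and the latency protein gene Ltbp1 (1.93 ± 0.20); the higher members numbered 2 with marker levels of other cells in the fit or with wild-type replicate 2 only, and the lower members 2 without stabilised replicate 2, stabilised replicate 3 or wild-type replicate 3. Of 20 Fat4 and Hippo genes 4 were called, all higher, a share near the 15.4% of all genes, with the atypical cadherin gene Fat1 at 1.36 ± 0.12 and the YAP target Ctgf at 2.01 ± 0.25; 2 were higher with marker levels of other cells in the fit or with wild-type replicate 2 only, and 3 were lower without wild-type replicate 1. Hedgehog genes gave 4 higher and 2 lower of 17, with the core genes Ptch1 (0.04) and Gli1 (0.24) not called, and the forkhead gene Foxl1 at 1.44 ± 0.17; the lower members were 1 without any 1 of stabilised replicates 1 and 3 and wild-type replicates 2 and 3, and the higher ones were 1 with wild-type replicate 2 only and 2 with marker levels of other cells in the fit. Foxf2 was counted at 80 reads against 0 in the wild-type libraries, at least 17.6-fold higher with a floor of 3 reads over the group, and Foxf1 at 48 against 0, at least 10.6-fold higher; the Foxf2 call was lost with marker levels of other cells in the fit (adjusted p = 0.138).

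**Figure D4:**
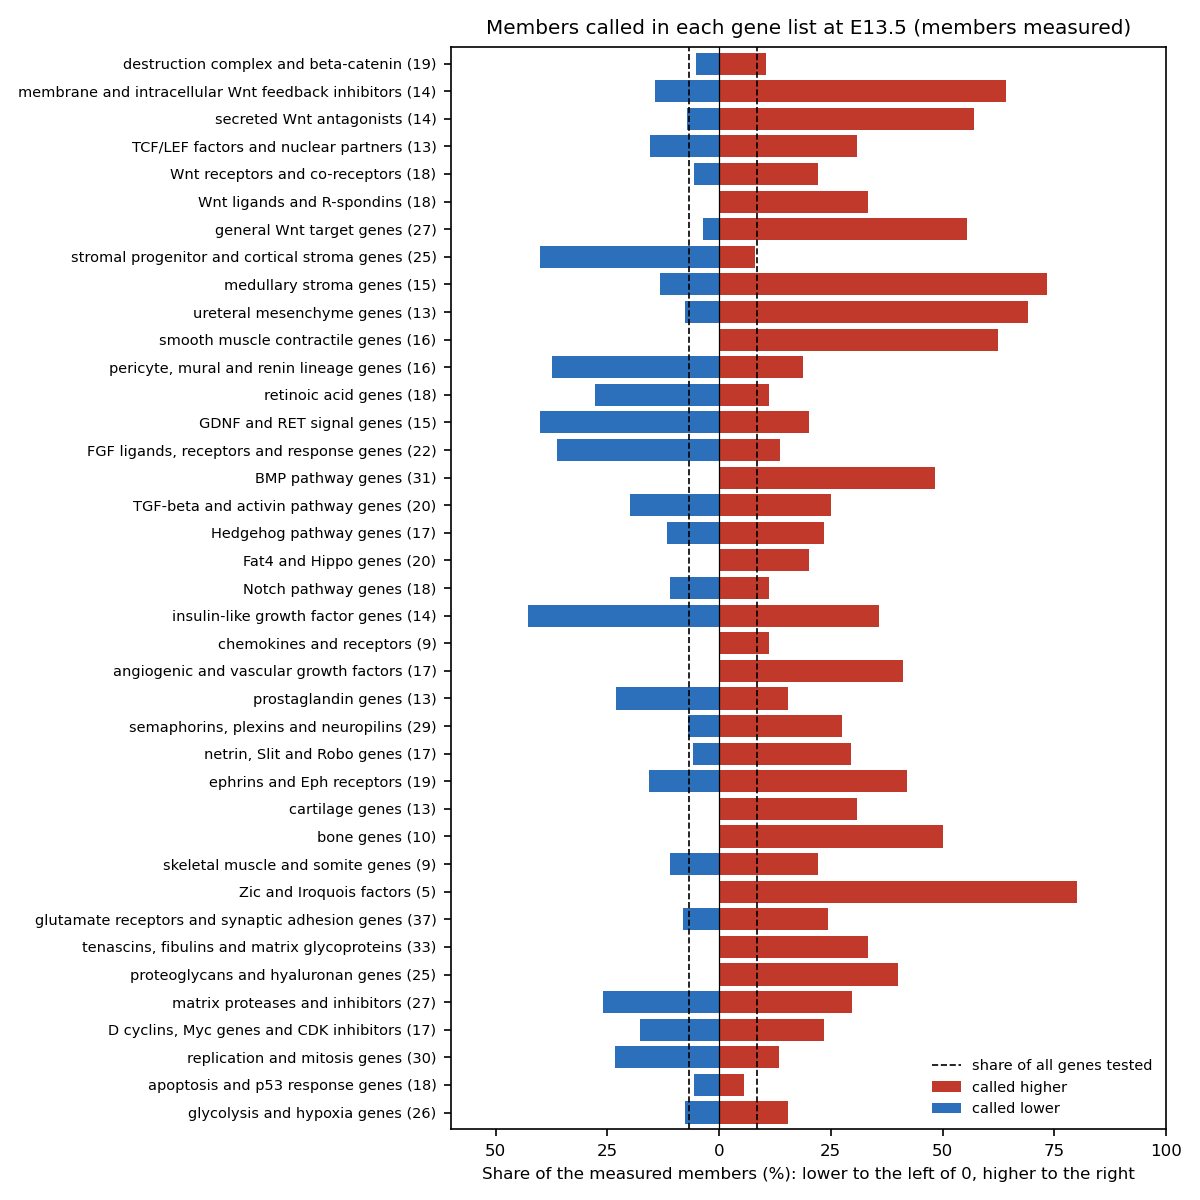
Share of the measured members of each gene list called higher (red, to the right) or lower (blue, to the left) in stabilised stroma at E13.5, in percent, with the number measured in brackets and the shares of all genes (8.53% higher, 6.83% lower) as dashed lines. Gene families and the lists of other cell types and of immediate early genes are left out. Wnt inhibitors, medullary stroma, ureteral mesenchyme and smooth muscle lists extend furthest to the right, beside the Zic and Iroquois factors, of which 5 of 11 are in the table, and the insulin-like growth factor, stromal progenitor and GDNF lists furthest to the left.

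Some genes best known from other tissues were higher in stabilised cells. Of 11 Zic and Iroquois factors listed, which pattern neural and limb tissues, 5 are in the table, and low genes could enter it through the stabilised libraries, so no count over them is read as a result; the single genes were as follows. Zic2 was counted at 204, 367 and 259 against 2, 2 and 2 reads (6.11 ± 1.07; adjusted p = 0.000234). Zic1 was counted at 87 reads in all against 0, at least 19.1-fold higher, Irx5 at 100, 186 and 104 against 17, 0 and 1, and Irx6 at 116 against 3 (ratio 25.5, interval 8.52 to 126); the Irx5 and Irx6 calls were lost with marker levels of other cells in the fit (adjusted p = 0.147 and 0.096). Of 16 bone genes listed 10 are in the table, for which the same limit holds; 5 were higher and none lower, and 2 were higher with marker levels of other cells in the fit. Runx2, the osteoblast master factor, stood at 5.50, 5.67 and 6.04 against 1.84, 3.48 and 3.49 log2 CPM (2.80 ± 0.32; adjusted p = 1.28e-06), and Sp7, which acts after it, at 4.22, 4.21 and 5.09 against 0.72, 1.10 and 0.81 (3.63 ± 0.52; 2.23e-05), whereas the mineral genes Alpl (−0.26), Spp1 (1.39) and Phex (2.21) were not called. Mybpc1, a myosin-binding protein of skeletal muscle, was counted at 2020, 3883 and 3115 against 35, 3 and 5 reads (7.72 ± 0.76; adjusted p = 1.16e-07). Of 21 skeletal muscle and somite genes listed 9 are in the table, with a median of −0.01: 2 were higher and 1 lower. The somite factor gene Meox1 fell by 1.77 on the log2 scale (adjusted p = 3.52e-07), from 5.46, 5.14 and 5.09 to 3.94, 3.15 and 3.28 log2 CPM. Beside Mybpc1 the other called higher was Actc1, a call lost without any 1 of stabilised replicates 1 (0.0511), 2 (0.107) and 3 (0.116) or wild-type replicates 2 (0.236) and 3 (0.0807). Tmem132c, a membrane protein, was counted at 2184, 4038 and 3564 against 23, 17 and 23 reads (6.57 ± 0.34; adjusted p = 3.12e-12). Mab21l1, a gene of eye development, was counted at 897 reads against 1, a ratio of 592 on the same scale (106 to 2.34e+04). The leptin receptor gene Lepr (5.50 ± 0.71), the orphan nuclear receptor gene Rorb (5.29 ± 0.98), the AMPA receptor gene Gria2 (5.13 ± 0.71), the potassium channel subunit gene Kcnab1 (4.83 ± 0.42) and the kainate receptor gene Grik3 (4.52 ± 0.69) also rose. Neuronal markers did not rise as a list: 1 of 12, Tubb3, was called (3.82 ± 0.86), and their summed level was 22.9 to 45.7 CPM in stabilised and 15.1 to 72.6 CPM in wild-type libraries.

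Among genes of axon guidance, which also act between mesenchymal cells, more were called higher than lower, beside 8.53% and 6.83% of all genes. Of 29 semaphorins, plexins and neuropilins 8 were higher and 2 lower, with Nrp2 at 2.37 ± 0.33 and Sema3c at 1.73 ± 0.21. The 2 lower are close to the share of all genes. Of 19 ephrins and Eph receptors 8 were higher and 3 lower, with Epha3 (2.09 ± 0.24), Epha7 (1.70 ± 0.16) and Epha4 (1.55 ± 0.15) up and Efna5 (−0.97 ± 0.13) down. Of 17 netrin, Slit and Robo genes 5 were higher and 1, Ntn1, lower: the netrin receptor gene Dcc rose by 3.28 ± 0.36 from 2.20, 1.10 and 1.27 to 4.86, 4.66 and 4.88 log2 CPM, opposite to its ligand, and Ntng1 by 3.95 ± 0.22. Among 17 vascular growth factors 7 were higher and none lower (median 0.63), with Pdgfc (1.83 ± 0.23), Vegfd (1.00 ± 0.17) and Vegfa (0.63 ± 0.10), beside the endothelial marker levels given above; 2 were lower without wild-type replicate 1.

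Some genes of the extracellular matrix were higher, in lists to be read beside 8.53% of all genes higher and 6.83% lower. Of 41 collagen genes 15 were higher and 3 lower (median 0.28), but 4 were higher with marker levels of other cells in the fit and 8 with wild-type replicate 2 only, and the 3 lower were 0 without wild-type replicate 2 or 3 and 1 without stabilised replicate 1. Col3a1, the fibrillar collagen of loose mesenchyme, stood at 11.92, 12.01 and 12.13 against 10.98, 11.45 and 11.21 log2 CPM (0.81 ± 0.13; adjusted p = 8.5e-05), while Col1a1 changed by 0.17 and was not called. Of 33 matrix glycoproteins 11 were higher and none lower, among them Emilin2 (3.10 ± 0.16), Egfl6 (1.86 ± 0.18), Thbs1 (1.42 ± 0.20) and Fbln1 (0.70 ± 0.08), and of 25 proteoglycan genes 10 were higher and none lower, with the syndecan gene Sdc2 at 2.30 ± 0.12; in the last 2 lists 5 each were higher with wild-type replicate 2 only, and without stabilised replicate 3 the proteoglycans gave 6; without wild-type replicate 1 each had 2 lower, and without stabilised replicate 2 the glycoproteins had 1. Of 20 cartilage genes listed 13 are in the table and 4 were higher, all collagens (Col9a1 2.06 ± 0.37, Col2a1 1.99 ± 0.53, Col11a1 1.15 ± 0.21 and Col9a2 1.07 ± 0.22), 1 with marker levels of other cells in the fit, and the cartilage factor Sox9 (0.52) and the core protein gene Acan (0.33) were not called; 1 was lower without wild-type replicate 1. The Col2a1 call was lost without wild-type replicate 2 (adjusted p = 0.0792) or 3 (0.0968).

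Growth and replication genes moved little in size. Of 30 replication and mitosis genes 4 were higher and 7 lower (median 0.05). The lower ones were mostly helicase genes of the replication licence, with Mcm6 at 8.21, 8.15 and 8.16 against 8.62, 8.71 and 8.52 log2 CPM (−0.44 ± 0.06; adjusted p = 6.49e-06), and the higher ones were spindle genes such as Kif11 (0.38) and Aurka (0.35). The 4 higher were 0 without wild-type replicate 1, and 1 or 2 without each stabilised replicate, and the 7 lower were 4 without stabilised replicate 3 or wild-type replicate 2 and 1 with marker levels of other cells in the fit. Of 17 cyclin, Myc and inhibitor genes 4 were higher and 3 lower, with Cdk6 at 0.82 ± 0.10 and 2 higher without stabilised replicate 2 or wild-type replicate 3. Of 14 insulin-like growth factor genes 5 were higher and 6 lower: Igfbp2 rose by 1.38 ± 0.13, and the imprinted transcript H19 (−0.74 ± 0.09) and Igfbp6 (−4.44 ± 0.87) fell, the latter counted at 9, 5 and 16 against 160, 61 and 234 reads; the lower members were 3 without wild-type replicate 3. Mest, another imprinted gene and one of the most abundant, fell by 1.13 ± 0.09 (adjusted p = 8.66e-09), from 11.68, 11.88 and 12.11 to 10.83, 10.74 and 10.72 log2 CPM.

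The question of whether the effect changed over a day of development was put to the same contrast at E12.5, whose libraries are all different from those at E13.5. At E12.5, 1127 genes (8.16%) were called, 713 of them higher (5.17%). Called at both stages were 668 genes, which are 31.5% of the E13.5 calls and 59.3% of the E12.5 calls: 436 were higher and 224 lower at both, and 8 were opposite. A test of the difference between the 2 effects called 183 genes (1.33%), of which 165 were also called at E13.5. That count was 61 to 532 when 1 library was left out: 532 without the E13.5 wild-type replicate 1, and 61 to 95 without its replicate 3 (64) or any 1 of the 6 E12.5 libraries. Of 45 named genes in which the difference was called, 9 were called under all 21 alternatives: Plch1, Aldh1a2, Zbtb7c, Ntn1, Nkd1, Fibin, Igfbp2, Adcy5 and Tmsb4x.

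The Wnt readouts were raised at both stages. Of 27 general targets 15 were higher at either stage. Axin2 had log2 changes of 3.47 at E12.5 and 3.73 at E13.5, Lef1 3.51 and 3.95, and Apcdd1 4.26 and 4.96, with no called difference. Nkd1 rose by 2.54 at E12.5 and by 0.99 more at E13.5 (adjusted p of the difference 0.00644). Contractile genes differed between the stages: none of 16 was higher at E12.5, and the difference was called in 5, against 1.33% of all genes. Acta2 had a log2 change of 0.22 at E12.5 (adjusted p = 0.73) and of 2.30 at E13.5, where the means were 8.18 in stabilised and 5.88 log2 CPM in wild-type stroma (difference 2.08; adjusted p = 0.00848). Tagln had stabilised and wild-type means of 6.45 and 6.27 log2 CPM at E12.5 and of 7.17 and 4.67 at E13.5 (2.31; 0.00858), and Myh11 went from 3.46 and 3.81 to 4.09 and 1.12 (3.32; 0.0133). These 3 differences were not called with wild-type replicate 2 as the only E13.5 wild-type library (adjusted p 0.105, 0.102 and 0.0867), and that of Myh11 not with marker levels of other cells in the fit (0.0877). Tbx18 (0.22 then 1.38) and Bmp5 (0.44 then 1.93) also had a larger change at E13.5, and their differences were also lost with that single wild-type library. For Tbx18 the stabilised means were 6.29 log2 CPM at E12.5 and 6.38 at E13.5, and the wild-type means were 6.07 and 5.00. Falls of 2 stromal genes were larger at E13.5: Aldh1a2 changed by −1.47 then −2.95 (adjusted p of the difference 0.00285) and Ntn1 by −0.95 then −2.48 (0.00848). Fibin was not called at E12.5 (0.11; adjusted p = 0.792) and fell at E13.5 (−1.67; adjusted p of the difference 0.00129). Plch1, a phospholipase C gene, changed by −1.19 then −3.13 (0.000153). Of 30 replication genes 13 were higher at E12.5, against 4 at E13.5, and the difference was called in 1 of them, Mcm6.

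**Figure D5:**
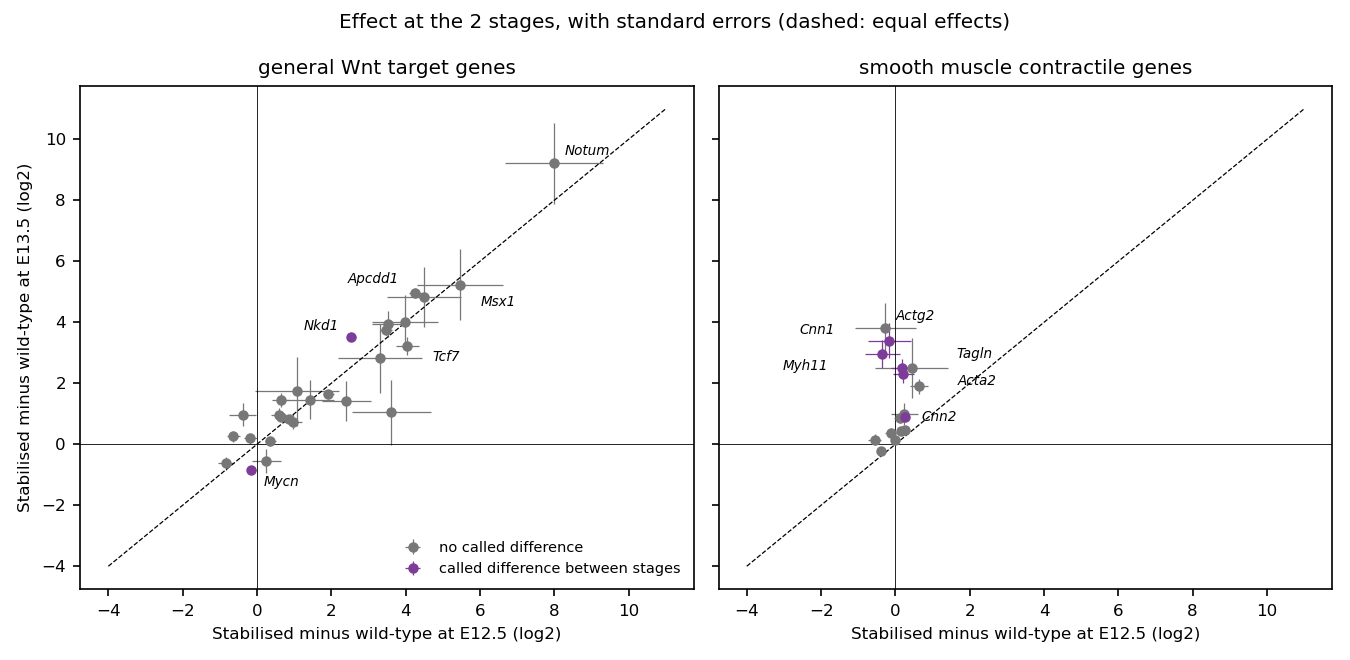
Log2 change at E13.5 (y axis) against that at E12.5 (x axis) with standard errors for the 27 general Wnt targets (left) and the 16 smooth muscle genes (right), in purple where the difference between stages was called. The difference was called in 2 of the 27 Wnt targets and in 5 of the smooth muscle genes; Cnn1, Myh11, Tagln and Acta2 lie well above the dashed line of equal effects with changes near 0 at E12.5.

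Beta-catenin-deficient stroma at E13.5, in C57BL/6, gave 469 calls (3.4%) against wild-type stroma of its own strain, so the strain goes with the line and cannot be told apart from it. Called in both lines were 181 genes, 8.54% of the stabilised calls and 38.6% of the deficient calls: 75 were higher in stabilised and lower in deficient cells, 56 the reverse, and 28 and 22 were higher or lower in both. Alx1 changed by 3.19 in stabilised and −5.06 in deficient stroma (adjusted p = 1.22e-05), Tcf21 by 1.24 and −1.31 (0.000645), Car3 by 4.08 and −1.70 (0.00365) and Pdgfc by 1.83 and −1.47 (0.000731). Sall1 changed by −2.14 and 0.39 (0.0165). Of the Wnt readouts, Lef1 (−3.79), Tcf7 (−1.93), Apcdd1 (−1.08) and Axin2 (−1.01) were called lower in deficient cells, and Nkd1 (−0.35) and Nkd2 (−0.44) were not called. Other genes called in stabilised cells were not called in deficient cells: Gdnf changed there by −0.02, Aldh1a2 by 0.16, Acta2 by 0.17 and Penk by 0.56. Notum changed by −0.79 without a call. Its C57BL/6 means were −1.50 log2 CPM in deficient and −0.71 in wild-type cells, too low to show a fall. The difference between the lines was not tested. Runx2 was higher in both, by 2.80 and 1.45 (0.0117).

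The values are totals over the exons of a gene. In GENCODE M21 on mm10, with the strand in brackets, the genes that the results turn on lie as follows: Notum at chr11:120653788-120661175 (minus), Nkd1 at chr8:88521354-88594884 (plus), Axin2 at chr11:108920349-108950783 (plus), Lef1 at chr3:131110471-131224356 (plus), Aldh1a2 at chr9:71215789-71296243 (plus), Gdnf at chr15:7810846-7837575 (plus), Sall1 at chr8:89027235-89044162 (minus), Foxd1 at chr13:98354242-98359305 (plus), Acta2 at chr19:34241090-34255590 (minus) and Tbx18 at chr9:87702800-87731260 (minus).

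Some counts are less certain than others because reads may be shared. The 233 genes named by rule were searched for this. Several of them overlap an exon of a gene on the opposite strand (Notum, Axin2, Lef1, Tle1, Tcf7l1, Btrc, Csnk1e, Dact2, Wnt5a, Zeb2, Tbx3, Tbx18, Tagln, Angpt1, Spry1, Bmp4, Bmp5, Fat1, Foxf2, Pdgfc, Runx2, Zic1, Irx6, Thbs1, Cdkn1c, H19, Mest, Shisa3, Mab21l1, Mybpc1, Kcnab1, Akr1b7, Ctnnb1, Ccnd1, Penk and Cdk6), and the strand setting used in counting is not given. Near-identical copies elsewhere in the genome exist for Lepr and Cdk6, 1 locus each. Rpl35a, a ribosomal protein gene with 14 such copies, was counted at 1633 reads in all in stabilised and 3 in wild-type libraries (ratio 359, interval 123 to 1.74e+03), while of 76 cytosolic ribosomal protein genes 2 were higher and 8 lower (3 lower without stabilised replicate 1 or wild-type replicate 1, 15 without wild-type replicate 2), so its value is uncertain. Its mean was 5.09 log2 CPM in stabilised and −2.95 in wild-type CD1 stroma at E13.5, and 4.53 and 2.63 at E12.5. In C57BL/6 stroma at E13.5 it was 5.02 in deficient and 4.84 in wild-type cells. The CD1 wild-type libraries at E13.5 were thus the lowest of these groups. At E12.5 the CD1 wild-type libraries were also below the stabilised ones (limma log2 change 1.90, adjusted p = 0.0015). The reason was not tested.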

How the data were processed

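RNA of sorted stromal cells was sequenced in 24 libraries, of which the 6 of CD1 embryos at E13.5 are described here. The deposited values are log2 CPM with 0.5 reads added, per the values in the file, for 13803 genes in 1 table. Per the submitters' processing notes, HISAT2, HTSeq, limma and the build mm10 were used; neither versions nor the strand setting nor the filter of the authors is given. Every gene exceeded log2 CPM 0 in at least 3 libraries. Read counts were recovered from the log2 values, and 100% came out whole within 0.1; CPM sums and floors use these reads, with exact 95% intervals that cover counting error only.

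The deposited log2 values were fitted with limma 3.58.1 (R 4.3.3), with 8 group means over all 24 libraries (16 residual degrees of freedom) and a moderated test. P-values were adjusted by Benjamini-Hochberg over all 13803 genes, with 0.05 as the threshold, and all adjusted p-values in the text are from this fit or an alternative of it. Changes are stabilised minus wild-type on the log2(CPM) scale, and errors are standard errors with n = 3 in each group. For genes with libraries at or near 0 reads the fitted change depends on the reads added. It can lie below or above the ratio of summed reads. On simulated data the fit recovered 67.3% of 2-fold and 82.1% of 4-fold changes of this comparison, with 4.63% of calls false. The simulation changed far fewer genes than were called and drew each gene separately. It held no signal of other cells particular to a library, so these shares need not hold for the real libraries. Alternatives were the amount added, scaling, filter, weights, libraries fitted, replicate block, other-cell covariates and leaving out each library.

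The gene members and 48 lists and 13 families were chosen with earlier results of these data known. Genes were named by rule: the 15 largest rises and falls with groups that do not overlap and a mean of at least log2 CPM 3, the 4 smallest p-values among called genes of each list, the 8 largest stage differences each way, the 8 most abundant genes called at least 2-fold, and a fixed set of Wnt and stromal genes. Other list members named in the text, such as Dact1, Kremen1, Pdgfra and Actg2, were chosen after their values were seen. Near-identical loci were searched with BLAST 2.17.0 (at least 95% identity over 200 bases), and 13678 symbols matched GENCODE M21; 20 symbols read as dates and were left unnamed. Counts over a list cover the members in the deposited table; a low gene could enter it through the group where it is high. Some genes are not reported here.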

Additional observations from a re-analysis of the deposited data

Results flagged for a closer look

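In 45 named genes the effect of stabilisation at E13.5 differed from that at E12.5 by the test of the difference in limma. Values below are the log2 effect at E13.5 minus that at E12.5, with the adjusted p in brackets, so a positive value is a higher effect at the later stage. Such a call was made in 1.33% of all genes, and 9 of the 45 were called under all 21 alternatives.

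Contractile genes gave Acta2 2.08 (0.00848), Tagln 2.31 (0.00858), Myh11 3.32 (0.0133), Cnn1 3.56 (0.0318) and Cnn2 0.64 (0.037). Wnt feedback inhibitors gave Nkd1 0.99 (0.00644) and Nkd2 1.54 (0.0129). Signalling genes of the BMP and activin pathways and the Hippo target gave Bmp4 1.28 (0.0304), Bmp5 1.49 (0.013), Smad9 1.01 (0.0495), Inhba 1.75 (0.0327) and Ctgf 1.78 (0.0138). Transcription factors of mesenchyme and stroma gave Tbx18 1.15 (0.013), Zeb2 0.64 (0.0337), Sall1 −0.54 (0.0384), Zbtb7c −1.31 (0.00586) and Mycn −0.68 (0.0472). Stromal signals and retinoic acid genes gave Aldh1a2 −1.48 (0.00285), Crabp2 −0.57 (0.0147), Ntn1 −1.53 (0.00848), Gdnf −1.2 (0.0499) and Fibin −1.78 (0.00129).

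Guidance and growth factor genes gave Efna5 −0.83 (0.0251), Epha3 1.4 (0.0454), Epha4 0.89 (0.0356), Vegfd 1.08 (0.0252), Igfbp2 0.91 (0.0124) and Ndnf 2.25 (0.0384). Matrix and adhesion genes gave Emilin2 1.09 (0.0195), Fbln1 0.46 (0.0499) and Itga3 −1.91 (0.044). Receptors and enzymes of cell signalling gave Adcy5 2.23 (0.00291), Plch1 −1.94 (0.000153), Grm3 −2.61 (0.00702), Npy1r 2.6 (0.0195) and Ptgfr −2.43 (0.0195). The others were Akr1b7 −2.23 (0.0241), Armh4 2.27 (0.00702), Mcm6 −0.43 (0.00909), Mest −0.55 (0.0384), Polr2l −2.84 (0.0484), Rpl35a 6.15 (5.28e-07), Tmsb4x 1.09 (0.00359), Tmtc1 −1.92 (0.0484) and Zfp934 −1.82 (0.0253). Rpl35a, Polr2l and Zfp934 have near-identical copies in the genome. The Rpl35a wild-type mean was 2.63 log2 CPM at E12.5 and −2.95 at E13.5, and the stabilised mean was 4.53 and 5.09.

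Several of these calls depended on the choice of libraries. Of the 21 alternatives the call was made in 6 for Smad9 and Mycn, 7 for Gdnf and Fbln1, and 8 for Sall1 and Mest. It was made in 9 for Epha3, Ndnf, Polr2l and Tmtc1, and in 10 for Cnn2 and Itga3. For Bmp4, Cnn1, Inhba and Epha4 it was made in 11. Leaving out the E13.5 wild-type replicate 3 gave 64 calls of a stage difference over all genes and leaving out the E13.5 wild-type replicate 1 gave 532. The part of the 2 libraries in each gene was not tested further.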

How the results depend on the processing

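The calls at E13.5 (2120; 1177 higher, 943 lower, 259 lower at least 2-fold) were within 1.5 times of these counts with another amount added, scaling, filter, weights or the 12 CD1 libraries. They were 1147, 772, 375 and 152 in the 6 libraries alone, which leave few degrees of freedom, and 1255, 664 and 591 in all, higher and lower with endothelial, macrophage and erythroid marker levels as covariates. With wild-type replicate 2 as the only E13.5 wild-type library, an alternative chosen after seeing the data in which the lone library is assumed to vary like the other groups, they were 1204, 688, 516 and 168, and the stage differences were 91 in place of 183. Leaving out 1 library gave 1538 to 2286 calls and 61 to 532 stage differences. Scaling by library totals moved the share of higher calls from 55.5% to 49.4%. Deviations from the group means gave no positive correlation between libraries of the same replicate number (−0.143, −0.103 and −0.099). With 3 libraries in each group this cannot exclude pairing. With the number as a replicate block there were 2060 calls. Of 228 named genes called, 169 were called under all 16 alternatives and 20 under all but 1. Genes that were not called changed sign: Ctnnb1 was 0.027 and Ccnd1 −0.25 with the covariates; leaving out 1 library each, Ccnd1 ranged from −0.03 to 0.24, Myc from −0.017 to 0.47 and Ret from −3.01 to 0.40. The cause was not tested. Depth limits the low genes: a group at 0 reads allows up to 3.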
